A study of Mus musculus with 8 samples.

Results

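The mRNAs of the nuclear pore complex and of its transport receptors were followed here through the neuralization of mouse ES cells, as total RNA and as RNA bound to Argonaute (Ago). The members were 42 genes, of 36163 gene names on the array, whose names begin with Nup, Kpna, Kpnb, Ipo, Xpo or Tnpo and a number, with Xpo5 left out. They comprise 21 nucleoporins and 21 transport receptors, measured with 62 probes. The cells were of the E14Tg2A line, a single ES line of strain 129/Ola, which was also the source of every later stage. ES cells (0 days in vitro) grew with serum and LIF, ELA were floating aggregates after 2 days in a chemically defined medium, NPC were adherent cells at 6 days, and NPC/Neu were cultures at 10 days, the last 4 of them without B27. At each of the 4 stages, 1 array carried total RNA and 1 array carried Ago–RNA, the RNA recovered from cytoplasmic complexes with an antibody against all Ago proteins. Each array held RNA pooled from 3 sets of experiments, so no condition had a replicate and no difference below has a p-value.

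Values are log2 signals, quantile normalized over the 8 arrays. Ago enrichment, E, is the log2 Ago–RNA signal minus the log2 total RNA signal of the same stage, so that 1 unit is a 2-fold ratio, and ΔE is its difference between consecutive stages. Normalization gives every array the same spread of signals, so E and all changes are relative to the other genes on the array. The errors that these arrays hold are the spread between spots of 1 probe and that between probes of 1 gene. The spread between spots was estimated from 257 probes printed in 10 spots each. It came to an SD of 0.21 to 0.23 for E, 0.31 for ΔE and 0.22 for a change in total RNA. This spot SD covers neither the choice of probe nor the cultures nor the immunoprecipitations. In 10 of 14 members with several probes measured in ES, the probes differed by more than the spot SD of E. A member was called above background when its mean signal over the 8 arrays reached T1, a limit of 7.82 set from the bimodal Ago–RNA signals, and 40 of 42 members passed. Kpna7, an importin α of oocytes, and Nup210l, a testis relative of Nup210, did not.

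The nuclear pore complex is built of nucleoporins in concentric layers. A membrane ring anchors it in the nuclear envelope, the Y complex forms the outer rings, the inner ring lines the pore, and channel nucleoporins rich in phenylalanine and glycine form the permeability barrier between the cytoplasmic face and the nuclear basket. Importin α adaptors bind the classical nuclear localization signal and are carried by importin β1 (Kpnb1), other importins and transportins bind their cargo directly, and exportins carry proteins and RNA out, with the GTPase Ran setting the direction. Several of these genes have been tied to the fate of ES cells, among them Nup133 and Nup210 in neural differentiation and the importin α subtypes, which are exchanged as ES cells become neurons. mRNAs reach Ago by pairing of the seed of a bound miRNA, its bases 2 to 8, with the transcript, most often in the 3′ UTR.

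The sequences of the miRNAs whose seeds were searched in these mRNAs are shown because the seed defines what was counted. They were read from RefSeq (GRCm38.p6), with the seed in capitals.
miR-294-3p: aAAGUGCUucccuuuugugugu
miR-302b-3p: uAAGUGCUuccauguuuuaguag
miR-17-5p: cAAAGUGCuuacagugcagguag
let-7a-5p: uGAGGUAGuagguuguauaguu
miR-9-5p: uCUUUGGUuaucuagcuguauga
miR-294-3p and miR-302b-3p, of the clusters typical of pluripotent cells, share the seed AAGUGCU, and that of miR-17-5p overlaps it shifted by 1 base. let-7a-5p is known from differentiated cells and miR-9-5p from neural progenitors. These arrays did not measure miRNAs.

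The 3′ UTR words that pair with the seeds were held by few of the members. Of 38 members above background with an annotated 3′ UTR, 3 held AGCACTT, the match of miR-294-3p and miR-302b-3p (7.89%, against 14.2% of 12153 genes above background). These were Kpna2, Nup155 and Xpo7. GCACTTT, for miR-17-5p, was found in 6 members (15.8% against 12.4%), CTACCTC, for let-7a-5p, in 5 (13.2% against 8.70%), and ACCAAAG, for miR-9-5p, in 7 (18.4% against 11.5%). Words were read on the sense strand only, and AGCACTT and GCACTTT overlap where both occur, as they do in Kpna2. The site of Kpna2 and the single AGCACTT site of Nup155, with the word in capitals, were as follows.
Kpna2: tttgttattgtAGCACTTtttacaaaagaa
Nup155: cctttaagtccAGCACTTggggaagcagtg
None of the members that met the criteria for release from Ago, given below, held AGCACTT in the annotated 3′ UTR. The annotated 3′ UTRs of Nup107 and Nup205, which are among them, are short, at 217 and 177 bases. A word match is a description of these letters and not evidence of binding. Median E in ES was higher with the word than without it for AGCACTT (1.26 against 0.92), about equal for GCACTTT (0.93 against 0.91) and lower for CTACCTC (0.45 against 0.94) and ACCAAAG (0.70 against 0.93). The value for AGCACTT is that of Kpna2, the middle one of 3 members, which was -0.00496 with scaling to the 75th percentile, and another of the 3 is Xpo7, whose probes disagreed. Median ΔE from ES to ELA was less negative with AGCACTT (-0.53) than without it (-0.68). For each word, members that held it had longer 3′ UTRs. The median length was 2093 bases with AGCACTT and 1077 without it, and 3223 and 970 for CTACCTC.

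A selection of probes in coding sequence is shown as well, since each value is the signal of 60 bases: the probe of Nup133, the member with the highest E in ES, both Nup188 probes that lie within 1 exon, and the Nup210 probe that disagreed with its partner. Positions are of mm9, the build of the array.
Nup133, chr8:126423303-126423362, minus strand: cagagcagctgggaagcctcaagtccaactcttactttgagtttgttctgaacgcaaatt
Nup188, chr2:30156549-30156608, plus strand: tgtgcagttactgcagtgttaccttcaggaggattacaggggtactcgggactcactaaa
Nup188, chr2:30182012-30182071, plus strand: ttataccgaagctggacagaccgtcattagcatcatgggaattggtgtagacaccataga
Nup210, chr6:91035854-91035913, minus strand: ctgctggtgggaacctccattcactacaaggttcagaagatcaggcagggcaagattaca
The Nup133 probe differs by 1 base from the annotated transcript. Of the 62 member probes, 18 lay in coding sequence and 44 in 3′ UTRs. For 13 probes of 8 members at least 54 of 60 bases also matched another place on a chromosome, which leaves their gene uncertain: all 4 probes of Kpna2, and probes of Ipo5, Nup153, Nup214, Nup35, Nup54, Tnpo1 and Xpo4.

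In ES cells most of these mRNAs had a higher signal in Ago–RNA than in total RNA, and in ELA the difference was smaller. Over the 40 members above background the median of E was 0.93 in ES and 0.90 in NPC/Neu, and between them it was 0.23 (ELA) and 0.38 (NPC), while the median over all genes above background stayed between -0.03 and 0.06. E was positive for 35 of 40 members in ES and 36 in NPC/Neu. Over all genes above background it was positive for 8969 of 17390 in ES and 9191 of 17369 in NPC/Neu. E of at least 1 was measured for 17 of 40 members in ES, where 12.9% of all genes above background reached it, for 3 in ELA (background 4.15%), for 6 in NPC (background 6.56%) and for 19 in NPC/Neu (background 13.6%). The median member stood at the 85.5th percentile of all genes above background in ES and the 71.5th in ELA, then the 73.2nd (NPC) and 83.8th (NPC/Neu), so the difference between stages was also seen in rank. The spread of E over all genes was itself narrower in ELA, where the middle 50% of genes ran from -0.30 to 0.28, than in ES, where it ran from -0.56 to 0.60. The ES Ago–RNA array was also the brightest before normalization, with an upper quartile of mean signal of 3039 against 1060 to 1774 on the other 7 arrays. The part of these array properties in the members' values was not tested.

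**Figure D1:**
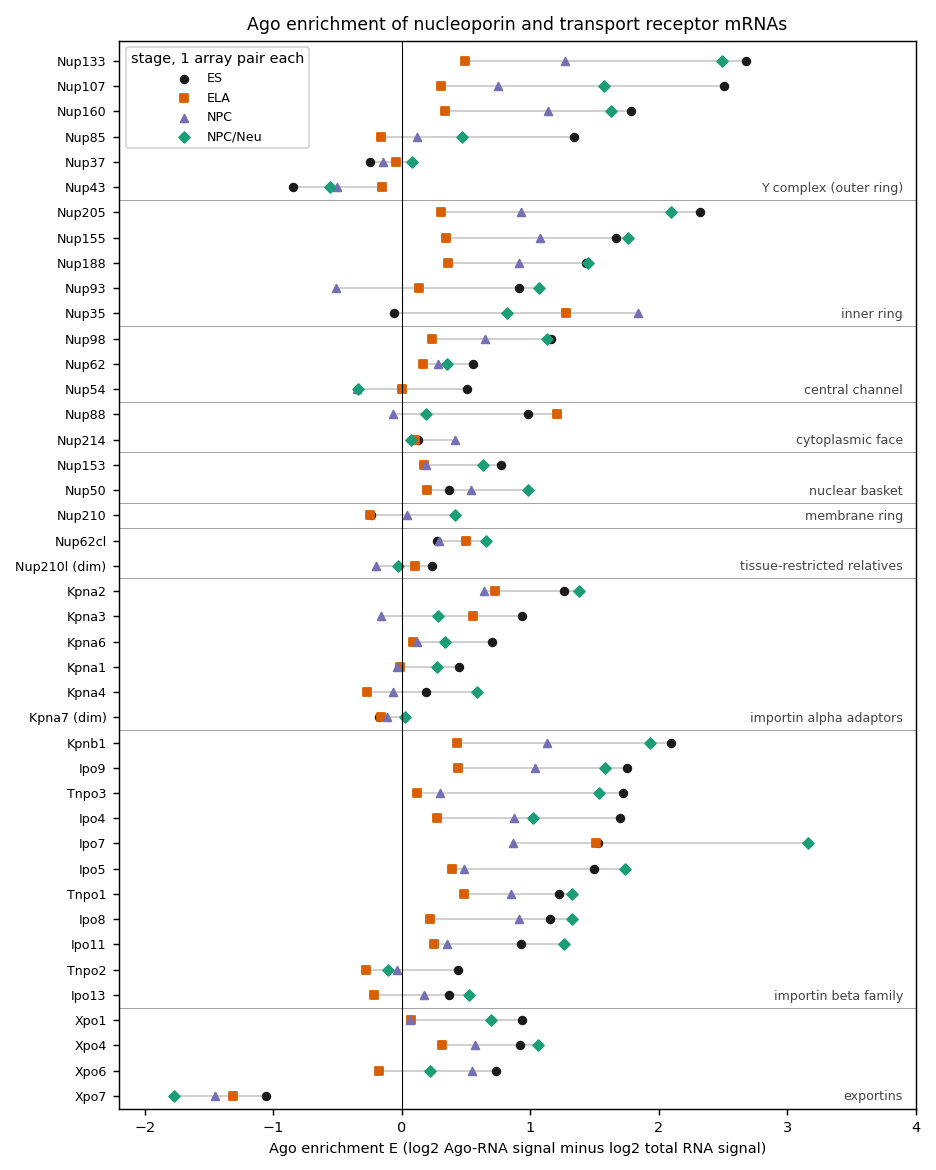
Ago enrichment E (log2 Ago–RNA minus log2 total RNA, horizontal axis) of the 42 members, grouped by place or function, with a symbol for each stage; each symbol is 1 pair of arrays. ELA lies lowest of the 4 stages for 26 of the 40 members above background, a count not made over all genes. Xpo7 has the lowest E of the 40 at every stage.

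The length of the coding sequence moved with E across the whole array. Over 12580 genes, E in ES correlated with coding length with a Spearman rho of 0.67 and a Pearson r of 0.66 on log2 length, against 0.29 and 0.23 in ELA. Over the 40 members rho was 0.40 in ES, 0.41 in NPC and 0.38 in NPC/Neu but 0.01 in ELA. It differed between the 2 kinds of members. In ES, ELA, NPC and NPC/Neu it was 0.45, -0.04, 0.29 and 0.37 over 20 nucleoporins. Over 20 receptors it was 0.12, -0.07, 0.29 and 0.09. Genes are not independent replicates, and the values of 1 stage share 2 arrays. The members are long, with a median coding length of 2842.5 bases against 1371 over all genes. Of 20 members with a coding sequence of at least 2895 bases, 11 had E of at least 1 in ES (55%), and so did 52.8% of all 1932 genes in the upper range of length. In that range median E in ES was 1.15 for the members and 1.04 for all genes. Of the 20 members between the quartiles of their coding length (1611 to 3378 bases), 10 had E of at least 1 (50%), against 24.0% of 3769 genes of that range, with medians of 1.06 and 0.58. These 2 sets overlap, as members of 2895 to 3378 bases are in both, so they are not a contrast of long with middle length. The median of the longer members was close to that of all genes of their range. The median of those between the quartiles, Kpnb1, Nup107, Nup85 and Tnpo3 among them, was higher than that of all genes of that range. These members lie toward its long end, however. Of the 20, 15 fall in the tenth of all genes with 2481 to 3447 bases, where median E in ES over all genes was 0.81.

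**Figure D2:**
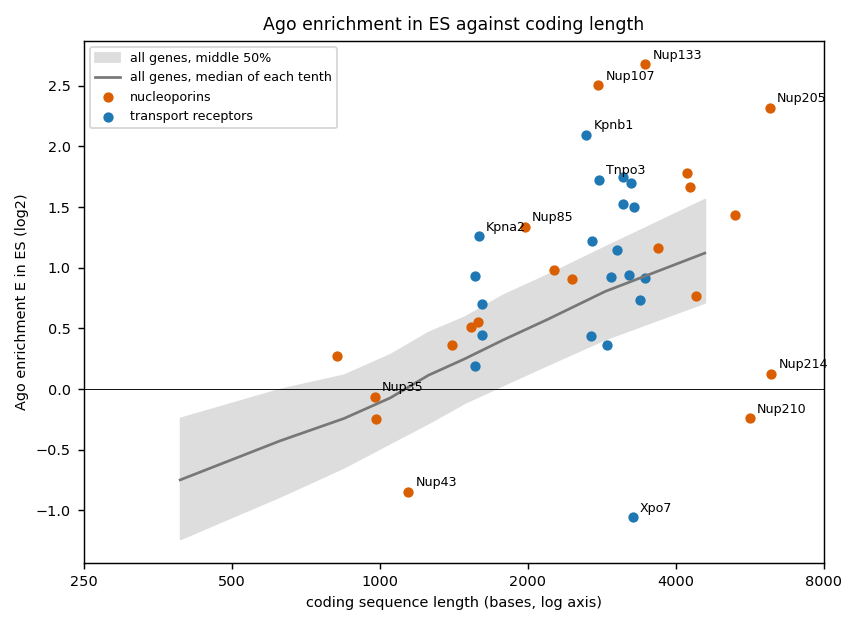
Ago enrichment in ES (vertical axis, log2) against coding length (horizontal log axis, bases) for the 40 members above background, with the median and middle 50% of all genes in 10 groups of length. Median E of all genes runs from -0.75 in the group of shortest to 1.12 in the group of longest coding sequences; Nup133, Nup107 and Kpnb1 lie above the band, and Nup214, Nup210 and Xpo7 below it.

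Between ES and ELA Ago enrichment was lower for most members, while total RNA differed by at most 0.5 for 39 of the 40 members. ΔE was negative for 35 of 40 members and for 8821 of 17344 genes above background. Its median was -0.65 for the members against -0.01 over all genes above background. E was lower by at least 1 for 12 of 40 members (background 7.37%) and higher by at least 1 for 1 member, Nup35 (background 9.03%). The 12 were Nup107, Nup133, Nup160 and Nup85 of the Y complex, Nup205, Nup155 and Nup188 of the inner ring, and Kpnb1, Tnpo3, Ipo4, Ipo9 and Ipo5. In these 12 total RNA differed by -0.35 to 0.23 between the stages and Ago–RNA by -2.28 to -0.88. Set beside coding length, ΔE of at most -1 was measured for 8 of the 20 longer members (40%) and 31.3% of all genes of that range. Median ΔE was -0.92 for the longer members and -0.71 for all genes of that range. Of the 20 members of middle length, 7 had ΔE of at most -1 (35%), against 14.6% of all genes of that range. These 2 sets overlap, and most members of middle length lie at the long end of their range. By group, ΔE was negative for all 11 genes of the importin β family (-1.67 to -0.01), for 4 of 6 of the Y complex, 4 of 5 of the inner ring, 5 of 5 importin α adaptors above background (-0.62 to -0.38) and 4 of 4 exportins (-0.91 to -0.26). The exceptions were Nup35 (1.34), Nup43 (0.69), Nup37 (0.20), Nup88 (0.23) and Nup62cl (0.22). Nuclear RNAs, listed as a check on the cytoplasmic Ago–RNA, moved over the same step in the other direction. E of Malat1 was -4.39 in ES and -2.47 in ELA, with Ago–RNA higher by 1.81 and total RNA different by -0.10. E of Neat1 was -1.63 and -0.77, that of Kcnq1ot1 -1.76 and -1.29, and that of Meg3 -2.30 and -1.53, so that all 4 were less depleted in ELA. The part of this shift in the members' ΔE was not tested. Total RNA was lower by at least 1 for Nup62cl alone (background 4.27%) and higher by at least 1 for no member (background 4.73%).

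**Figure D3:**
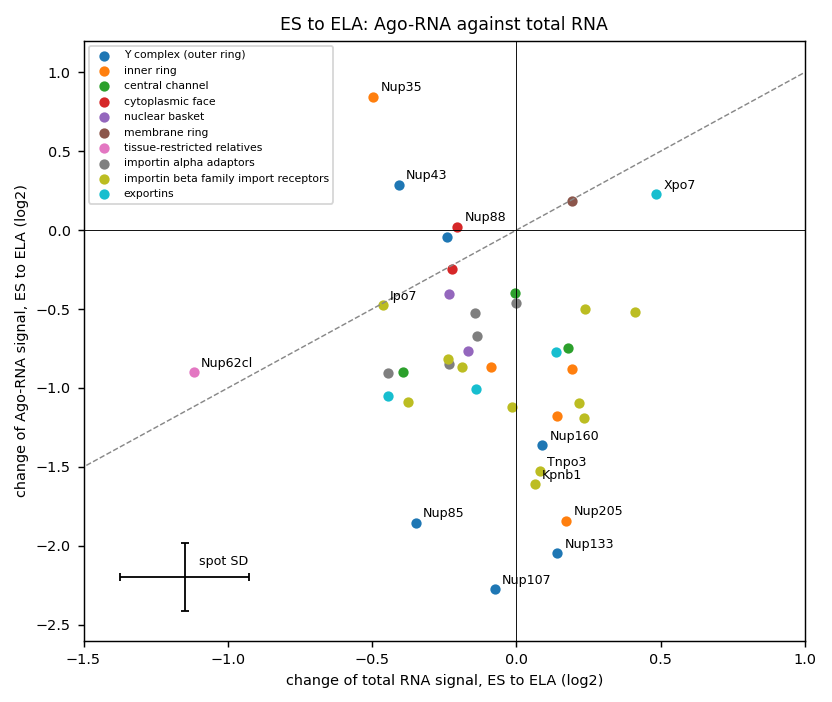
Change of Ago–RNA signal (vertical axis, log2) against change of total RNA signal (horizontal axis, log2) from ES to ELA for the 40 members above background, colored by group, with the spot SD as a cross; on the dashed line E does not change. Nup107, Nup133, Nup205 and Kpnb1 lie far below the line near a total RNA change of 0, and Nup35 lies above it.

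Release from Ago was called where the Ago–RNA signal reached T1 and E was at least 2 at the earlier stage, E was at most 0.5 at the next and ΔE was at most -1.5, and loading was called by the reverse. From ES to ELA, 4 members were released, Nup107, Nup133, Nup205 and Kpnb1, which is 9.52% of the 42 members, against a background of 0.277% of all gene names. All gene names include those not above background. Over the 12584 genes above background with a known coding length, the share of released genes was 0.763%, against 10% of 40 members. In the upper range of length the share was 3.47%, and 2 of 20 members were released (10%). In the lower range, which reaches down to 75 bases over all genes and 819 in the members, it was 0.272%, and 2 of 20 members were released (10%). These 2, Kpnb1 (2631 bases) and Nup107 (2781 bases), lie near the long end of that range, at 2841 bases. Between the quartiles of the members' coding length the share was 0.98% of 3769 genes, and the same 2 of 20 members were released (10%). No member was loaded from ES to ELA (background 0.188%), none was released (background 0.13%) or loaded (background 0.0442%) from ELA to NPC, and none was released (background 0.0442%) or loaded (background 0.0553%) from NPC to NPC/Neu. The 4 calls depend on how the arrays are scaled: with scaling to the 75th percentile, or with Ago–RNA and total RNA arrays normalized apart, 0 members were released, although ΔE of the 4 genes stayed between -1.97 and -1.22. Just outside the limits were 1 probe of Nup93 (E in ES 1.90, in ELA 0.34), Nup160 (1.78 and 0.33), Ipo9 (1.75 and 0.44) and Tnpo3 (1.72 and 0.11), and just inside were Kpnb1 (2.10 and 0.43) and Nup133, whose E in ELA of 0.49 is near the limit of 0.5.

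In the Y complex, the scaffold of the outer rings, the members divided into those with high E in ES and those without. Nup107 (chr10:117187680-117229761), which links the stem of the Y, had Ago–RNA signals of 18.04, 15.76, 15.81 and 15.88 and total RNA signals of 15.53, 15.46, 15.06 and 14.30 in ES, ELA, NPC and NPC/Neu. ES Ago–RNA stood alone, as E was 2.50 in ES and 0.30, 0.75 and 1.58 later. Nup133 (chr8:126421023-126473165), at the foot of the Y, had Ago–RNA signals of 17.37, 15.33, 15.75 and 16.51 and total RNA signals of 14.70, 14.84, 14.48 and 14.01. Its E was 2.68, 0.49, 1.27 and 2.49, a ratio of Ago–RNA to total RNA of 6.39 in ES and 1.40 in ELA, and it came back in NPC/Neu to within the spot SD of ES. Nup160 went from 1.78 to 0.33 and Nup85 from 1.34 to -0.16 between ES and ELA, each past 4 times the spot SD of ΔE. The small β-propeller subunits Nup37 and Nup43 did otherwise. Nup43 had Ago–RNA signals of 14.28, 14.57, 13.85 and 12.58 and total RNA signals of 15.13, 14.72, 14.35 and 13.13, so that E was negative at every stage and ΔE from ES to ELA was 0.69. Nup37 kept E between -0.25 and 0.08.

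The inner ring held both Nup205, with one of the lowest ΔE of the members, and Nup35, with the reverse pattern. Nup205 (chr6:35127445-35197590), a large scaffold protein, had Ago–RNA signals of 16.98, 15.14, 15.69 and 16.23 and total RNA signals of 14.66, 14.83, 14.77 and 14.14. E was 2.32, 0.31, 0.93 and 2.09, high at both ends of the series. Nup155 gave E of 1.67, 0.35, 1.08 and 1.76, and Nup188, a structural relative of Nup205, gave 1.44, 0.36, 0.91 and 1.45. For Nup188 the 3 probes, spread along the coding sequence, had E in ES of 1.02, 1.58 and 1.71 and ΔE of -1.08, -0.89 and -1.26, the same direction in each. Nup35 (chr2:80457393-80499063), a small protein that joins the inner ring to the membrane, had Ago–RNA signals of 14.61, 15.46, 15.44 and 14.19 and total RNA signals of 14.68, 14.18, 13.60 and 13.37. Its Ago–RNA was highest in ELA and NPC while total RNA was lower at each later stage, which gave E of -0.06, 1.28, 1.84 and 0.82. The second Nup35 probe had an irregular spot on the ES Ago–RNA array and was left out of these values, and in the other stages it gave 1.25, 2.04 and 0.76. A sequence nearly identical to both Nup35 probes exists elsewhere in the genome. Nup93 is given with the probes that disagree.

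Channel, cytoplasmic, basket and membrane nucleoporins had smaller changes from ES to ELA. Nup98, a channel nucleoporin, had Ago–RNA signals of 12.42, 11.67, 11.14 and 12.14 and total RNA signals of 11.26, 11.44, 10.49 and 11.02, with ΔE of -0.93. Nup62, the central channel protein, had Ago–RNA signals of 17.05, 16.66, 16.20 and 16.30 and total RNA signals of 16.50, 16.49, 15.91 and 15.95. Its ΔE of -0.39 turned to 0.46 with scaling to the 75th percentile, so its direction is not settled. Nup88, of the cytoplasmic face, had its lower E from NPC on. Its Ago–RNA signals were 15.40, 15.42, 14.10 and 14.10 and its total RNA signals 14.42, 14.22, 14.17 and 13.91, so that Ago–RNA was lower from NPC on and E was 0.98 and 1.204 before and -0.07 and 0.19 after. Nup214, its partner, had Ago–RNA signals of 8.16, 7.92, 7.94 and 7.79 and total RNA signals of 8.04, 7.81, 7.52 and 7.72, all close to T1.

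The basket genes were measured with 10 spots per array. Nup153, which lines the nuclear face and binds chromatin, had Ago–RNA signals of 14.67, 13.91, 13.34 and 13.56 and total RNA signals of 13.90, 13.73, 13.16 and 12.93. Its E was 0.77 ± 0.26 (SD over 10 spots) in ES, 0.17 ± 0.23 in ELA and 0.18 ± 0.23 in NPC, then 0.63 ± 0.24 (NPC/Neu), high at both ends. Nup50, a cofactor of import that docks at Nup153, had Ago–RNA signals of 13.38, 12.97, 12.43 and 12.33 and total RNA signals of 13.01, 12.78, 11.89 and 11.34. Its E was 0.37, 0.19, 0.54 and 0.99, highest in NPC/Neu. The mean over the probes of Nup210, the membrane glycoprotein, had Ago–RNA signals of 11.03, 11.21, 11.56 and 11.85 and total RNA signals of 11.27, 11.46, 11.52 and 11.43, and its probes disagreed as described below. Nup62cl, a relative of Nup62, had Ago–RNA signals of 9.02, 8.12, 7.93 and 7.53 and total RNA signals of 8.74, 7.62, 7.64 and 6.87, under T1 in total RNA from ELA on. Nup210l had Ago–RNA signals of 6.82, 6.66, 6.91 and 7.86 and total RNA signals of 6.59, 6.56, 7.10 and 7.89, and only the NPC/Neu values passed T1.

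The importin β family was the group of receptors with the highest E, with a median over 11 genes of 1.499 in ES and 0.27 in ELA, then 0.85 (NPC) and 1.32 (NPC/Neu). Kpnb1 (chr11:97021028-97049195), the carrier of importin α, had Ago–RNA signals of 16.10, 14.49, 15.06 and 15.39 and total RNA signals of 13.999, 14.06, 13.93 and 13.46. E was 2.10, 0.43, 1.13 and 1.93, and the ES and NPC/Neu values differ by less than the spot SD. ΔE from ES to ELA was -1.61 for Tnpo3, the import receptor of SR splicing factors, -1.42 for Ipo4, -1.31 for Ipo9 and -1.11 for Ipo5, both probes of which gave a lower E. Ipo7 (chr7:117161939-117198628), a carrier of ribosomal proteins, had Ago–RNA signals of 13.04, 12.57, 11.53 and 12.84 and total RNA signals of 11.52, 11.06, 10.67 and 9.68. E was 1.52, 1.51, 0.87 and 3.16, so that it did not follow the group into ELA and reached the highest E of any member in NPC/Neu, a ratio of 8.94. Tnpo2 and Ipo13, with E in ES of 0.43 and 0.36, were the lowest of the group.

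Among the importin α adaptors no gene had ΔE past 1. Kpna2, the importin α known as abundant in undifferentiated ES cells, had Ago–RNA signals of 18.04, 17.37, 17.33 and 17.85 and total RNA signals of 16.78, 16.64, 16.69 and 16.47. Its total RNA varied by 0.31 over the series. Its 4 probes agreed within 0.13 in E in ES, but near copies of each lie elsewhere in the genome, and with scaling to the 75th percentile its E in ES was -0.00496 in place of 1.26. Kpna1, a subtype known from neurons, had Ago–RNA signals of 12.48, 11.58, 11.82 and 11.81 and total RNA signals of 12.03, 11.59, 11.85 and 11.53, a change in total RNA of -0.50 from ES to NPC/Neu. Kpna4, another subtype known from neurons, had Ago–RNA signals of 13.16, 12.70, 12.71 and 12.73 and total RNA signals of 12.97, 12.97, 12.78 and 12.15. Neither had more total RNA in NPC/Neu than in ES. Kpna6 had Ago–RNA signals of 13.15, 12.30, 11.70 and 11.73 and total RNA signals of 12.45, 12.22, 11.59 and 11.39, with ΔE of -0.62 from ES to ELA, and its probes gave -1.09 and -0.15. For Kpna7 all signals lay between 6.07 and 6.43, under T1.

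Of the 4 exportins, Xpo1, Xpo4 and Xpo6 stood between the 79.7th and 85.7th percentile of all genes in E in ES. The mean over the probes of Xpo7 gave E of -1.06, -1.32, -1.45 and -1.78, the lowest of the 40 members at every stage, and its probes disagreed as given below. Xpo6, an exportin of actin, had Ago–RNA signals of 12.10, 11.33, 11.28 and 11.11 and total RNA signals of 11.36, 11.50, 10.74 and 10.89. Over its 10 spots E was 0.73 ± 0.22 in ES and -0.18 ± 0.24 in ELA, where the SD is only that between spots of 1 pair of arrays. Xpo1, the main exportin for proteins with a leucine-rich signal, had E of 0.94, 0.07, 0.06 and 0.69, and its probes agreed within 0.04 in ES. Xpo4 had Ago–RNA signals of 12.54, 11.49, 10.81 and 10.58 and total RNA signals of 11.62, 11.18, 10.25 and 9.52, both lower at each later stage.

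After ELA the median E of these mRNAs was higher at each stage. From ELA to NPC median ΔE was 0.25 and 28 of 40 members had a higher E (all genes above background: 9154 of 17327). None was higher by 1 (background 1.81%), and Nup88 was lower by at least 1 (background 3.43%). From NPC to NPC/Neu median ΔE was 0.45 and 34 members had a higher E (all genes above background: 9074 of 17348). For 28 members the difference was over the spot SD of 0.31, and the upper quartile over all genes was 0.36. E was higher by at least 1 for 6 of 40 members (background 2.23%), namely Ipo7, Nup93, Ipo5, Nup133, Tnpo3 and Nup205, and lower by at least 1 for Nup35 (background 4.53%). For 22 of 40 members E in NPC/Neu lay within the spot SD of E in ES. The middle 50% of this difference ran from -0.28 to 0.19 for the members and from -0.34 to 0.38 over all genes above background. E in NPC/Neu near that in ES was thus also common among all genes. In the upper range of coding length, median ΔE from ELA to NPC was 0.40 for the longer members and 0.33 for all genes. From NPC to NPC/Neu it was 0.49 and 0.41.

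The total RNA of the members was mostly lower in NPC/Neu than in ES. Median change was -0.61 on the log2 scale against -0.07 over all genes above background. Less total RNA was measured for 36 of 40 members and for 9203 of 17389 genes above background. Total RNA was lower by at least 1 for 13 of 40 members (32.5%, background 19.2%) and higher by at least 1 for 1 (2.5%, background 18.9%). The other members with more were Xpo7 (0.75, with probes that disagreed), Nup210 (0.17) and Ipo13 (0.01). The lowest were Xpo4 (-2.10), Nup43 (-1.99) and Nup62cl (-1.87). Ipo9, an importin for histones and actin, was the member past 1, with total RNA signals of 11.66, 11.87, 12.36 and 12.98 and Ago–RNA signals of 13.41, 12.31, 13.39 and 14.56, a change of 1.32. With scaling to the 75th percentile 28 members, in place of 14, had a change in total RNA past 1 in either direction, and the median was -1.18. The median over all genes was then -0.21, and the share of all genes past 1 was not counted under that scaling. The steps were small, with 1 member lower by at least 1 from ELA to NPC, Nup160 (background 10.9%), and 1 from NPC to NPC/Neu, Nup43 (background 4.87%). No member was higher by at least 1 in either step (background 11.9% and 5.68%). In bulk RNA a smaller share of cells that express a gene and less RNA in each cell cannot be told apart.

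**Figure D4:**
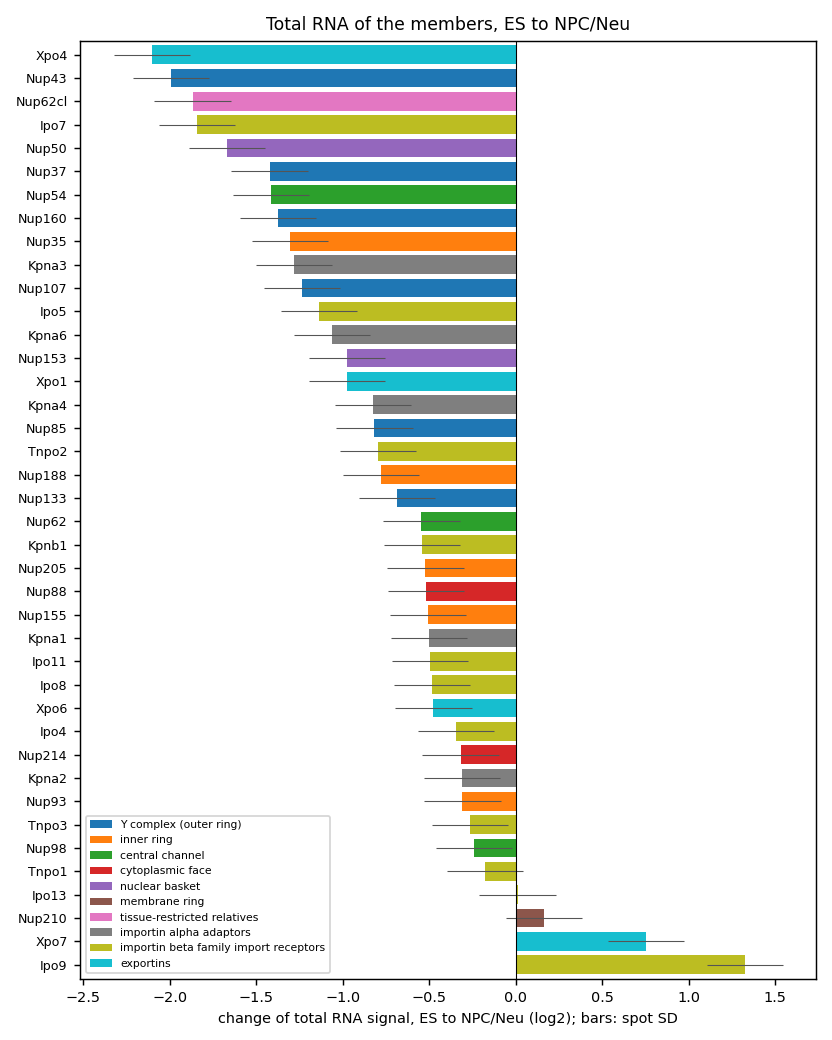
Change of total RNA signal from ES to NPC/Neu (horizontal axis, log2) for the 40 members above background, sorted and colored by group; lines are the spot SD of 0.22. Of the 40 bars 36 point to less RNA, Xpo4 at -2.10 is the lowest, and Ipo9 at 1.32 the highest.

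Listed stage markers mostly, but not all, followed the stages in total RNA. Zfp42, a naive pluripotency gene, was at 15.97 in ES, 8.71 in NPC and 9.76 in NPC/Neu. All 6 listed naive genes were higher in NPC/Neu than in NPC, Esrrb among them (9.59 and 11.55). Fgf5, a primed epiblast gene, was highest in ELA (14.78). The neural progenitor genes Sox1 (8.32 and 10.88), Pax6 (7.36 and 9.81) and Nes (13.00 and 15.70) were higher in NPC/Neu than in ES. Tubb3, a neuronal tubulin, was at 12.95 in ES and 17.01 in NPC/Neu. Eomes, listed with the primed epiblast, was highest in NPC/Neu (11.33), Otx2 of the same list varied between 15.53 and 16.06, and the neuronal gene Nefl was already at 13.26 in ES, with 11.41 in ELA and 16.03 in NPC/Neu. Of 11 markers of other cell types, 1 (ES), 2 (ELA), 6 (NPC) and 5 (NPC/Neu) passed T1. Gata4, Gata6, Elf5 and Gfap were under T1 at every stage, and Col1a1 was above it at every stage. From ES to NPC/Neu, Col3a1 went from 7.17 to 11.41, Foxa2 from 6.76 to 10.10, T from 7.19 to 9.31 and Olig1 from 6.71 to 8.78. Cdx2 (9.29) and Sox17 (8.08) passed T1 in NPC alone. The part of other cell types in the members' totals was not tested.

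Other genes of the pore and of transport were taken from a list of 29, of which 28 were on the array. E in ES was at least 1 for 6 of 28 (background 12.9%). It was lower in ELA by at least 1 for 7 of 28 (background 7.37%), against 12 of 40 members. These were Rangap1 (ΔE -1.98), the GTPase activating protein of Ran, Ahctf1 (-1.68), a Y complex partner, and Ranbp2 (-1.51), the large cytoplasmic filament protein. The others were Xpot (-1.40), the tRNA exportin, Nxf1 (-1.31), the mRNA export factor, Cse1l (-1.18), which recycles importin α, and Ranbp3 (-1.14). ΔE was at least 1 for Nxt1 (1.41), the partner of Nxf1, and Ranbp1 (1.24), with a background of 9.03%. None met the release criteria, which 0.277% of all gene names met. The median ΔE of the list was -0.30. Total RNA was lower by at least 1 in NPC/Neu than in ES for 9 of 28 (background 19.2%). It was higher by at least 1 for Pom121 alone (1.05, background 18.9%). Ran itself had E between -0.33 and -0.11 at all stages.

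Members with several probes show how far E depends on the probe. Of 14 members with more than 1 probe measured in ES, 10 had probes that differed by more than the spot SD of E. Xpo7 was the extreme, with E in ES of 0.32 for the probe 8001 bases from the end of the transcript and -2.43 for the probe 32 bases from it, and a change in total RNA from ES to NPC/Neu of -0.70 and 2.21. No direction can be given for Xpo7, whose mean Ago–RNA signals were 9.40, 9.63, 9.49 and 9.44 and total RNA signals 10.46, 10.94, 10.94 and 11.21. Nup210 gave 0.96 for the 3′ UTR probe, 2 bases from the end, and -1.43 for the coding probe printed above, 6176 bases from it, yet ΔE from ES to ELA was -0.09 and 0.07. Nup93, an inner ring protein, gave E of 1.90 and -0.08 in ES and ΔE of -1.56 and 0.00 from ES to ELA, and the second probe was well above background on 3 of 8 arrays. The probes of Kpna2, Xpo1 and Nup54 agreed within the spot SD.

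**Figure D5:**
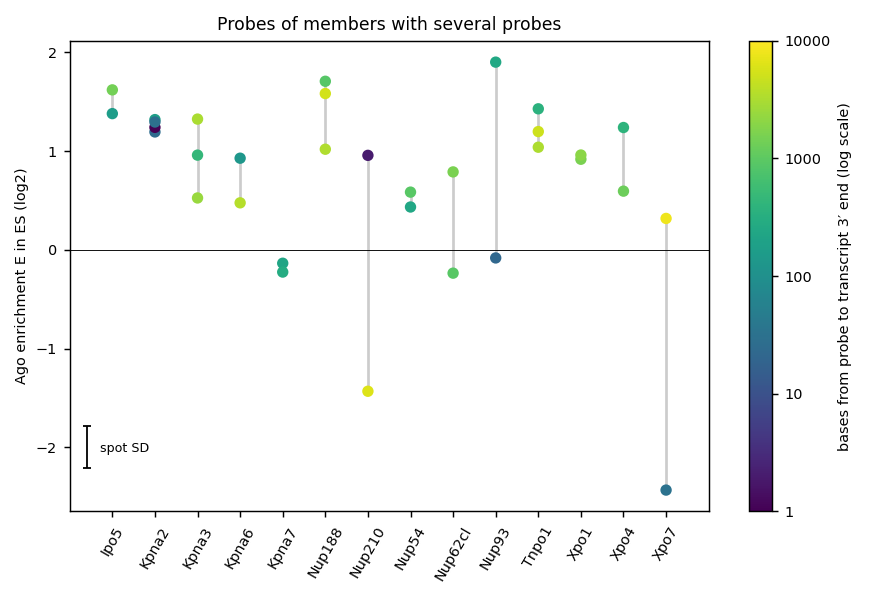
Ago enrichment in ES (vertical axis, log2) of each probe of the 14 members with more than 1 probe measured in ES, colored by the distance of the probe from the 3′ end of the transcript (log scale), with the spot SD of 0.21 as a bar. Probes of Nup210, Nup93 and Xpo7 lie 2 units or more apart, or close to it, while those of Kpna2, Xpo1 and Nup54 nearly coincide.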

How the data were processed

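Agilent single-color arrays with mm9 annotation were read for 4 stages, each with Ago–RNA and total RNA (8 arrays, 1 per condition, RNA of 3 experiments pooled). The authors deposited spot intensity as written by Feature Extraction (10.7.3.1 in the file headers, 9.1 in the submitters' processing notes): mean intensity, local background and processed intensity, not normalized between arrays. Arrays have no read depth, and their number limits the precision. The RNA input for labeling is given as 50 ng in the labels.

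Mean intensity was background corrected with normexp (offset 50, limma 3.58.1, R 4.3.3), irregular spots (125 to 523 per array) were dropped, all 8 arrays were brought to 1 common distribution of log2 signals (quantile method), and repeated spots of a probe were averaged. The value of a gene is the mean of its probes with a value on every array. T1 lies 3 SD over the mean of the dim component of a mixture of 2 fitted to the Ago–RNA arrays (mclust 6.1.1), and the limits for release and loading (2, 0.5 and 1.5) follow the methods of the study. Probes were placed in GENCODE transcripts of the array's build, with up to 6 differences within the same gene, and on the genome with minimap2 2.31-r1302. Lengths are those of the transcript with the longest coding sequence. Genes named with all 8 values are those released or loaded, in each group the members at either extreme of ΔE between ES and ELA, the 3 lowest and 3 highest changes of total RNA, Kpna1, Kpna2, Kpna4, Nup133, Nup153, Nup50, Nup210, and members whose probes differ by over 2 in E in ES; other members are named beside the count or pattern they belong to. Members, lists and limits were chosen with earlier results of these data known. No test was made. The scripts were tested on simulated data. Alternatives tried were a normexp offset of 16 or 0, quantile or 75th percentile scaling of the processed intensity, normalization of each RNA type apart, a filter to probes well above background, irregular spots kept, the brightest probe, a low limit of 1.2, and T1 at both stages.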

Additional observations from a re-analysis of the deposited data

Results flagged for a closer look

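Nup93 stood out because its E had opposite signs at 2 stages, -0.51 in NPC and 1.07 in NPC/Neu. The difference was not tested, since each stage has 1 pair of arrays. The values are means of a probe with E of 0.93 in NPC and 1.83 in NPC/Neu and of a probe with -1.95 and 0.31, which was well above background on 3 of 8 arrays.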

How the results depend on the processing

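No paired analysis was possible because each condition has 1 array, and no replicate could be left out. Of 204 values of medians and counts under the alternatives, 182 stayed within the spot SD or within 1.5 times the count. With scaling to the 75th percentile, 0 members were released from ES to ELA, median E in ES was 0.64, and median change in total RNA was -0.59 from ELA to NPC and -1.18 from ES to NPC/Neu. E passed 1 in change for 2 members from ELA to NPC, and total RNA for 6, 5 and 28 members from ELA to NPC, NPC to NPC/Neu and ES to NPC/Neu. It moved the median E of all genes to between -0.32 and -0.16. Relative to that, the members' median E in ES was 0.96, against 0.90 in the main setting. Kpna2 changed sign in ES (-0.00496). With Ago–RNA and total RNA arrays normalized separately, all genes moved up to a median E of 0.22 to 0.28, 0 members were released because E in ELA passed 0.5 for all 4, median E was 1.24, 0.62, 0.66 and 1.21 at the 4 stages, and 2 members had a total RNA change past 1 from NPC to NPC/Neu. With the processed signal and quantile normalization, 2 members had ΔE past 1 from ELA to NPC, and 4 and 5 had a total RNA change past 1 from ELA to NPC and NPC to NPC/Neu. With offsets of 16 and 0, 0 members had a total RNA change past 1 from ES to ELA and 3 from NPC to NPC/Neu. With a low limit of 1.2, 1 member, Ipo7, was loaded from NPC to NPC/Neu. With the brightest probe, E of Xpo7 changed sign (0.32 in ES, 0.0734 in ELA, 0.30 in NPC/Neu). With irregular spots kept 3 members were released, without Nup133, whose E in ELA was then 0.50. Median ΔE from ES to ELA stayed between -0.75 and -0.57 under all these settings. The shares of all genes past these limits were not counted under the alternatives, so the counts of members have no background there.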
